A study of Mus musculus with 4 samples.

Results

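Actb, Gapdh and Eef2, genes that nearly every cell transcribes, were examined with the liver gene Alb as a silent contrast, in chromatin immunoprecipitation sequencing (ChIP-seq) libraries of mouse embryonic stem cells. The members are 4 genes fixed by name, each with a window of mm9: chromosome 5 from 143.655 to 143.68 Mb for Actb, chromosome 6 from 125.105 to 125.125 Mb for Gapdh, chromosome 10 from 80.63 to 80.655 Mb for Eef2, and chromosome 5 from 90.88 to 90.91 Mb for Alb. The windows touched 27 of the 37520 peaks in the 3 deposited peak lists, all 27 of them in the windows of Actb, Gapdh and Eef2. The groups were chromatin recovered with an antibody labelled as against LSD1, chromatin recovered with an antibody against H3K4me2, chromatin recovered with control IgG, and Input, the genomic DNA without antibody. All came from R1 embryonic stem cells of strain 129SV at passages 13 to 18, grown on gelatin with 1000 U/ml of leukaemia inhibitory factor (LIF). Each group held 1 library, so no difference below has a replicate check and no p-value is given. Intervals are exact 95% intervals that cover counting error only. The catalogue number beside LSD1 in the labels matches one that another supplier uses for H3K27me3. The name LSD1 here follows the label, and its target was not checked.

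LSD1 is a histone demethylase whose substrates are the mono- and dimethylated forms of lysine 4 on histone H3. Lysine 4 methylation marks the starts of transcribed genes, where the nucleosomes nearest to the start are known to carry mostly the trimethylated form and H3K4me2 lies further out on either side. Actb codes for cytoplasmic beta-actin, Gapdh for an enzyme of glycolysis, and Eef2 for the factor that moves the ribosome along the messenger RNA. Alb codes for serum albumin, made by hepatocytes. The sequence around the start is shown for the members matched in the RefSeq promoter table (3 of 4), because the density of CG dinucleotides differs between Eef2 and Alb. Each holds 300 bases, of which the last 50 follow the annotated start, is given 5′ to 3′ in the direction of the gene, and has CG dinucleotides in capitals. The build is GRCm38.p6, not the mm9 of the reads, with Gapdh at chr6:125165724-125166023 on the minus strand, Eef2 at chr10:81176381-81176680 on the plus strand and Alb at chr5:90460620-90460919 on the plus strand.
Gapdh: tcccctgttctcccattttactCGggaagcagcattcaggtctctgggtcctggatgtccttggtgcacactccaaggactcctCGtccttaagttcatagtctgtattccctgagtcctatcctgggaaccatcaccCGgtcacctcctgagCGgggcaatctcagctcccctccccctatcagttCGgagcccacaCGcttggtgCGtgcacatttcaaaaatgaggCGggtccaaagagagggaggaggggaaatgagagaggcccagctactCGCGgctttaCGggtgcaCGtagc
Eef2: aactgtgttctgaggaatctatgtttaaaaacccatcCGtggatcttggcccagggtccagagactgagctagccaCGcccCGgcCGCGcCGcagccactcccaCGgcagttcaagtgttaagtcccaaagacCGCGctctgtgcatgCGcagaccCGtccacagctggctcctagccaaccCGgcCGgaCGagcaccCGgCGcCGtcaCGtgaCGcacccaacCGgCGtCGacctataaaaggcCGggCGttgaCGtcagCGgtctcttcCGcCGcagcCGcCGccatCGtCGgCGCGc
Alb: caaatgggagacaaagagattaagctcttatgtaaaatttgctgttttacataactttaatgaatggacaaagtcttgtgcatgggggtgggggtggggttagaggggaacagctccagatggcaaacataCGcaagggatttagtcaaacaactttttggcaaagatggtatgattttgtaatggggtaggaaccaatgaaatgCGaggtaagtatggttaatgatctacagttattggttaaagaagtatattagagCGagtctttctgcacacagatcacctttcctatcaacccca
The Eef2 sequence held 34 CG dinucleotides, the Gapdh sequence 12 and the Alb sequence 3, against a median of 7 over the 32851 promoters of the table. At least as many as in Eef2 occurred in 7.73% of promoters, as many as in Gapdh in 39.6% and as many as in Alb in 76.7%. The letters TATAAA were found once, in Eef2, on the strand of the gene with the first base at position -15 from the annotated start, and on either strand in 13.6% of all promoters. CCAAT was found in Alb, once on each strand, and in 37.4% of promoters. GGGCGG was searched on both strands and found in none of the 3, against 35.7% of promoters. These matches are descriptions of the letters only. The annotated starts of this table were not matched to the starts placed for the reads. The sequences may therefore surround other starts of the same genes.

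The LSD1 library held 5833862 reads, the H3K4me2 library 6416657, IgG 4755619 and Input 3801082. Densities are reads per 1000000 reads of the library and per kb (RPM per kb), with the start of each read moved 100 bp along its strand. Gene starts and ends were placed from general knowledge of the mm9 gene models, in steps of 200 bp, because no mm9 annotation was used here. Per these positions Actb ran for 3.6 kb on the minus strand, Gapdh for 3.8 kb on the minus strand, Eef2 for 5.8 kb on the plus strand and Alb for 16 kb on the plus strand. A gene table of GRCm38.p6 gives lengths of 4862, 4616, 5879 and 15733 bp in the same order. Actb and Gapdh were thus placed shorter than in that table, and at which end was not checked. Segments and peaks placed by the start or end of these genes carry this uncertainty. As a check of the cell label, the 5 kb on either side of the starts of 3 genes that mark embryonic stem cells were placed in the same way. H3K4me2 peaks numbered 5 at Pou5f1, 4 at Nanog and 1 at Sox2, and LSD1 peaks 5, 0 and 1, while the Alb window held no peak of any list.

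Both ChIP libraries were several times denser over the whole windows of the 3 housekeeping genes than over that of Alb. The housekeeping windows are 20 to 25 kb wide and hold neighbouring genes, so window values are not those of the named genes alone. The LSD1 density was 1.87 RPM per kb in the Actb window, 2.36 in that of Gapdh and 2.73 in that of Eef2, against 0.280 in that of Alb. The H3K4me2 density was 2.87, 3.88 and 3.99 RPM per kb in the same order, against 0.192 at Alb. IgG was also denser there, at 1.09, 0.967 and 1.24 against 0.336 RPM per kb, and Input at 0.737, 0.447 and 0.673 against 0.412. Set against Alb, the Eef2 window was thus 9.75-fold higher for LSD1 (7.23 to 13.4), 20.8-fold for H3K4me2 (14.9 to 29.8), 3.70-fold for IgG (2.66 to 5.24) and 1.63-fold for Input (1.10 to 2.43).

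Over whole windows the excess over Alb remained after division by IgG. The LSD1 to IgG ratio was 1.71 (1.38 to 2.13) at Actb, 2.44 (1.92 to 3.12) at Gapdh and 2.19 (1.81 to 2.67) at Eef2, against 0.832 (0.547 to 1.27) at Alb. The 3 comparisons with Alb share its values. The Actb ratio was 2.05 times that of Alb (1.28 to 3.30), the Gapdh ratio 2.92 times (1.79 to 4.77) and the Eef2 ratio 2.63 times (1.65 to 4.19). For H3K4me2 the ratios to IgG were 2.62 (2.15 to 3.21), 4.01 (3.21 to 5.07) and 3.20 (2.68 to 3.86), against 0.571 (0.362 to 0.896) at Alb. The H3K4me2 ratios were 4.58, 6.99 and 5.59 times that of Alb, and all 3 intervals lay above 1. In the Alb window the H3K4me2 library was below IgG, and its interval excluded 1. IgG itself, divided by Input, was 1.48 (1.10 to 2.01) at Actb, 2.16 (1.44 to 3.31) at Gapdh and 1.85 (1.37 to 2.52) at Eef2, against 0.816 (0.534 to 1.25) at Alb. The part of this IgG signal in the ChIP densities was not tested, and all 3 H3K4me2 and all 3 LSD1 ratios to IgG lay above 1 with their intervals.

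The LSD1 to H3K4me2 ratio of RPM was 0.653 (0.560 to 0.760) in the Actb window, 0.607 (0.522 to 0.705) in the Gapdh window and 0.684 (0.602 to 0.776) in the Eef2 window, against 1.46 (0.931 to 2.30) in the Alb window. The 3 housekeeping windows did not differ from each other beyond counting error in this ratio, whereas none of their intervals overlapped that of Alb. Over all H3K4me2 peaks of the genome the ratio was 0.514, and outside the peaks of both lists 1.12.

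At the promoters, taken as 1 kb on either side of the start, both ChIP libraries exceeded IgG at all 3 housekeeping genes. With 600 bp on either side this held at Actb alone. The Gapdh ratios were then 2.14 for LSD1 (0.910 to 5.59) and 2.22 for H3K4me2 (0.966 to 5.73), the Eef2 ratios 2.21 (0.891 to 6.23) and 2.33 (0.961 to 6.46), and all 4 intervals included 1. The Actb promoter of 2 kb held 42 LSD1 reads, 76 H3K4me2 reads, 7 IgG reads and 4 Input reads. LSD1 exceeded IgG there 4.89-fold (2.18 to 12.9) and H3K4me2 exceeded it 8.05-fold (3.72 to 20.7). The Gapdh promoter held 44 LSD1, 48 H3K4me2, 10 IgG and 2 Input reads. Its ratio to IgG was 3.59 (1.78 to 7.99) for LSD1 and 3.56 (1.78 to 7.89) for H3K4me2. The Eef2 promoter held 36 LSD1, 41 H3K4me2, 11 IgG and 7 Input reads, the lowest ChIP counts and the highest control counts of the 3. LSD1 exceeded IgG 2.67-fold (1.33 to 5.81) and H3K4me2 2.76-fold (1.39 to 5.96). The Alb promoter held 5 LSD1 reads, 2 H3K4me2 reads, 1 IgG read and 1 Input read. With 1 IgG read the LSD1 ratio of 4.08 had an interval from 0.456 to 193, and no ratio is given for H3K4me2. The promoter LSD1 to IgG ratio was 1.20 times that of Alb at Actb (0.0222 to 13.4). It was 0.882 times at Gapdh (0.0169 to 9.27) and 0.659 times at Eef2 (0.0127 to 6.88). No excess over the Alb promoter was thus shown in this ratio.

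The genome was divided into tiles of 2 kb, the width of the promoter segments, to set these counts against the rest of the chromatin. A tile was called where the ChIP to IgG ratio, with 0.5 reads added to each count, was at least 2 and the ChIP library held at least 10 reads. For LSD1 4.08% of 1220129 tiles were called, and 3 of 3 housekeeping promoters met the rule. For H3K4me2 5.69% of tiles were called, and again 3 of 3 promoters met it. The Alb promoter met neither. In LSD1 reads 0.327% of tiles held as many as the Actb promoter or more, 0.261% as many as the Gapdh promoter and 0.620% as many as the Eef2 promoter. In H3K4me2 reads these shares were 0.360%, 1.44% and 1.95%. The promoters were also in the upper part of the IgG counts, where 16.1%, 4.12% and 2.52% of tiles held as many reads. The median of the 3 promoter ratios to IgG, with 0.5 reads added, was 3.45 for LSD1 and 3.42 for H3K4me2, against 0.815 and 0.741 over all tiles. Over all H3K4me2 peaks, whose median width was 734 bp, the medians were 3.17 and 6.28.

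**Figure D1:**
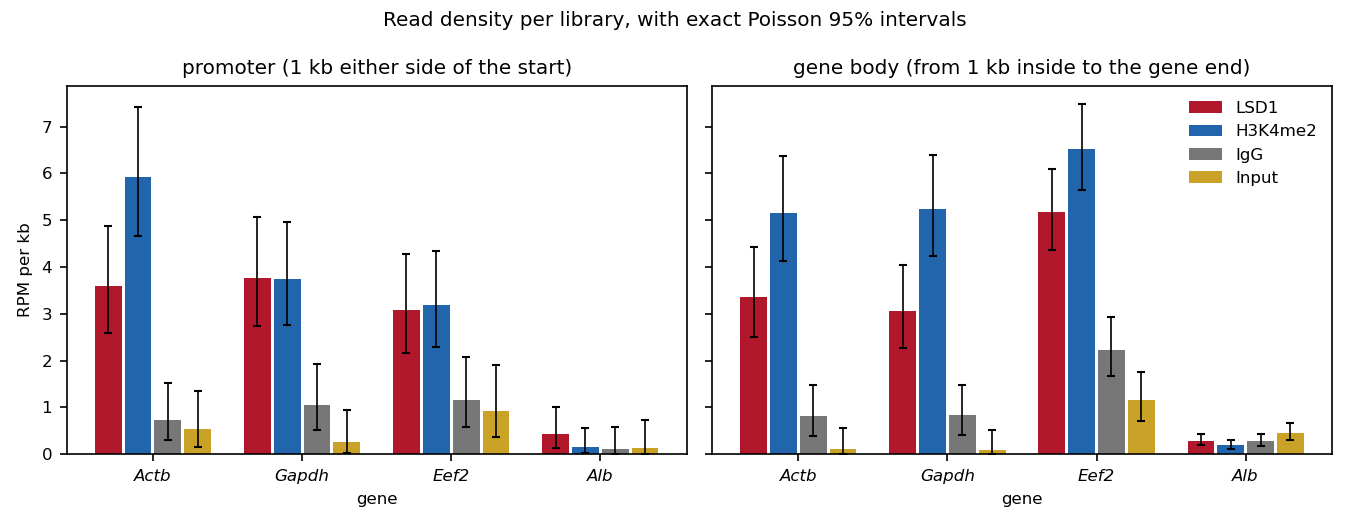
Read density in RPM per kb (bars) with exact Poisson 95% intervals (lines) in the promoter (left) and the gene body (right) of Actb, Gapdh, Eef2 and Alb, with 1 library per bar. The LSD1 and H3K4me2 bars of the 3 housekeeping genes lie between 3.06 and 6.53 RPM per kb in both panels, and at Alb no bar exceeds 0.456.

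The order of promoter and gene body depended on where the promoter ended. With 1 kb on either side of the start, and the body from there to the gene end, neither ChIP library was denser in the promoter beyond counting error at any of the 3 genes. At Actb the LSD1 density was 3.60 RPM per kb in the promoter and 3.36 in the body, a ratio of 1.07 (0.694 to 1.64), and the H3K4me2 density was 5.92 and 5.15, a ratio of 1.15 (0.833 to 1.58). At Gapdh the LSD1 density was 3.77 in the promoter and 3.06 in the body, a ratio of 1.23 (0.803 to 1.89). The H3K4me2 density of Gapdh was 3.74 in the promoter and 5.23 in the body, a ratio of 0.715 (0.494 to 1.02). These 4 intervals include 1. At Eef2 the promoter was less dense than the body in both ChIP libraries, with 3.09 and 5.18 RPM per kb for LSD1, a ratio of 0.596 (0.402 to 0.863), and with 3.19 and 6.53 for H3K4me2, a ratio of 0.490 (0.341 to 0.688). IgG followed the same order at Eef2, with 1.16 in the promoter and 2.23 in the body, a ratio of 0.518 (0.243 to 1.01).

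Divided by IgG, promoter and body of Eef2 were not told apart with these segments. The ratio to IgG in the promoter over that in the body was 1.15 (0.524 to 2.70) for LSD1 and 0.946 (0.439 to 2.19) for H3K4me2. At Actb these values were 1.17 (0.367 to 3.97) and 1.26 (0.410 to 4.11), and at Gapdh 0.968 (0.337 to 2.81) and 0.564 (0.201 to 1.60). All 6 intervals include 1, and the IgG counts of 7 to 11 reads per promoter limit their precision. The placing of the start mattered at Eef2. With the start moved 400 bp into the gene, the LSD1 value was 2.06 (1.004 to 4.49), an interval just above 1. The H3K4me2 value was then 1.24 (0.607 to 2.68). With the promoter taken as 2 kb on either side, and the body from there, the promoter was the denser one in 5 of the 6 cases. The density ratio of promoter to body was then 1.84 (1.10 to 3.26) for LSD1 at Actb and 1.33 (0.930 to 1.93) for H3K4me2, the case whose interval included 1. At Gapdh it was 1.51 (1.00 to 2.33) for LSD1 and 1.56 (1.11 to 2.24) for H3K4me2. At Eef2 it was 1.68 (1.26 to 2.27) for LSD1 and 1.32 (1.03 to 1.69) for H3K4me2. Divided by IgG, all 6 intervals again included 1 under this definition.

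**Figure D2:**
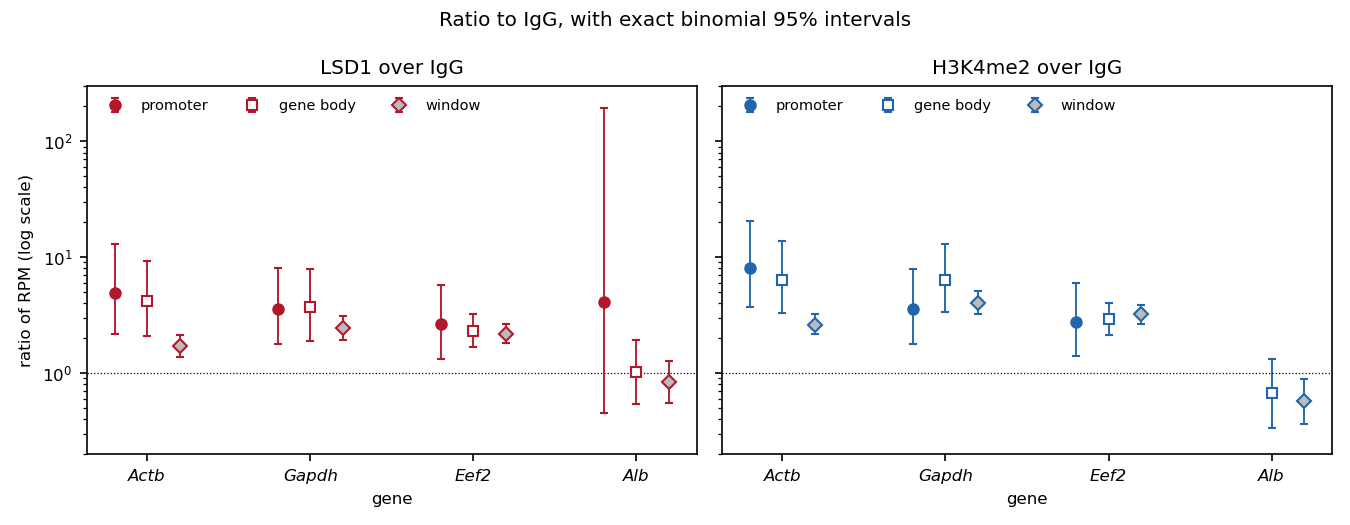
Ratio of RPM to IgG on a log scale for LSD1 (left) and H3K4me2 (right) in the promoter (filled circles), gene body (open squares) and whole window (grey diamonds) of each gene, with exact binomial 95% intervals. Promoter and body intervals overlap at each housekeeping gene, and the Alb window lies below 1 at 0.832 for LSD1 and 0.571 for H3K4me2.

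Against IgG the gene bodies, each taken as a whole from 1 kb inside to the gene end, were raised at all 3 genes. The LSD1 ratio to IgG was 4.16 (2.09 to 9.18) in the Actb body, 3.71 (1.90 to 7.89) in that of Gapdh and 2.32 (1.67 to 3.25) in that of Eef2, against 1.02 (0.543 to 1.93) in that of Alb. The H3K4me2 ratio was 6.37 (3.30 to 13.8), 6.33 (3.38 to 13.1) and 2.92 (2.14 to 4.05), against 0.667 (0.333 to 1.33) at Alb. The body values of Alb rest on 25 LSD1, 18 H3K4me2, 20 IgG and 26 Input reads. Beyond 3 kb inside the gene the LSD1 ratio was 3.26 (0.323 to 161) at Actb, 5.30 (1.20 to 48.4) at Gapdh and 1.68 (0.930 to 3.13) at Eef2. The H3K4me2 ratio there was 3.71 (0.415 to 175), 2.96 (0.592 to 28.7) and 2.43 (1.41 to 4.38). Only the intervals of Gapdh for LSD1 and of Eef2 for H3K4me2 lay above 1 there.

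The stretch from 1 to 3 kb inside the gene took up 2000 of the 2600 bp of body at Actb and 2000 of 2800 bp at Gapdh. Its share of the reads thus depends on its width, and densities are given. At Actb the 2 kb from 1 to 3 kb inside the gene held 47 LSD1 and 81 H3K4me2 reads, and the last 600 bp held 4 and 5. In RPM per kb these are 4.03 and 6.31, against 1.14 and 1.30 in the last 600 bp. The promoter exceeded this last stretch 3.15-fold in LSD1 (1.14 to 12.1) and 4.56-fold in H3K4me2 (1.87 to 14.4). IgG held 7 reads in the promoter and 1 in this stretch, and divided by IgG the contrast was 1.49 for LSD1 (0.0267 to 18.4) and 2.15 for H3K4me2 (0.0402 to 23.8), so that both intervals included 1. At Gapdh H3K4me2 fell to 1.56 RPM per kb beyond 3 kb, against 6.70 in the 2 kb before, while LSD1 was at 2.79 and 3.17. At Eef2 the stretch from 1 to 3 kb reached 9.26 RPM per kb in LSD1 and 11.1 in H3K4me2, and the remaining 2800 bp held 2.27 and 3.28. IgG was denser in the stretch from 1 to 3 kb too, at 0.946 against 0.350 RPM per kb beyond it at Actb. The IgG values were 0.946 and 0.526 at Gapdh and 3.47 and 1.35 at Eef2. At Alb the stretch held 1 LSD1 read and 3 H3K4me2 reads. These are 0.0857 and 0.234 RPM per kb, against 0.316 and 0.180 beyond 3 kb.

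**Figure D3:**
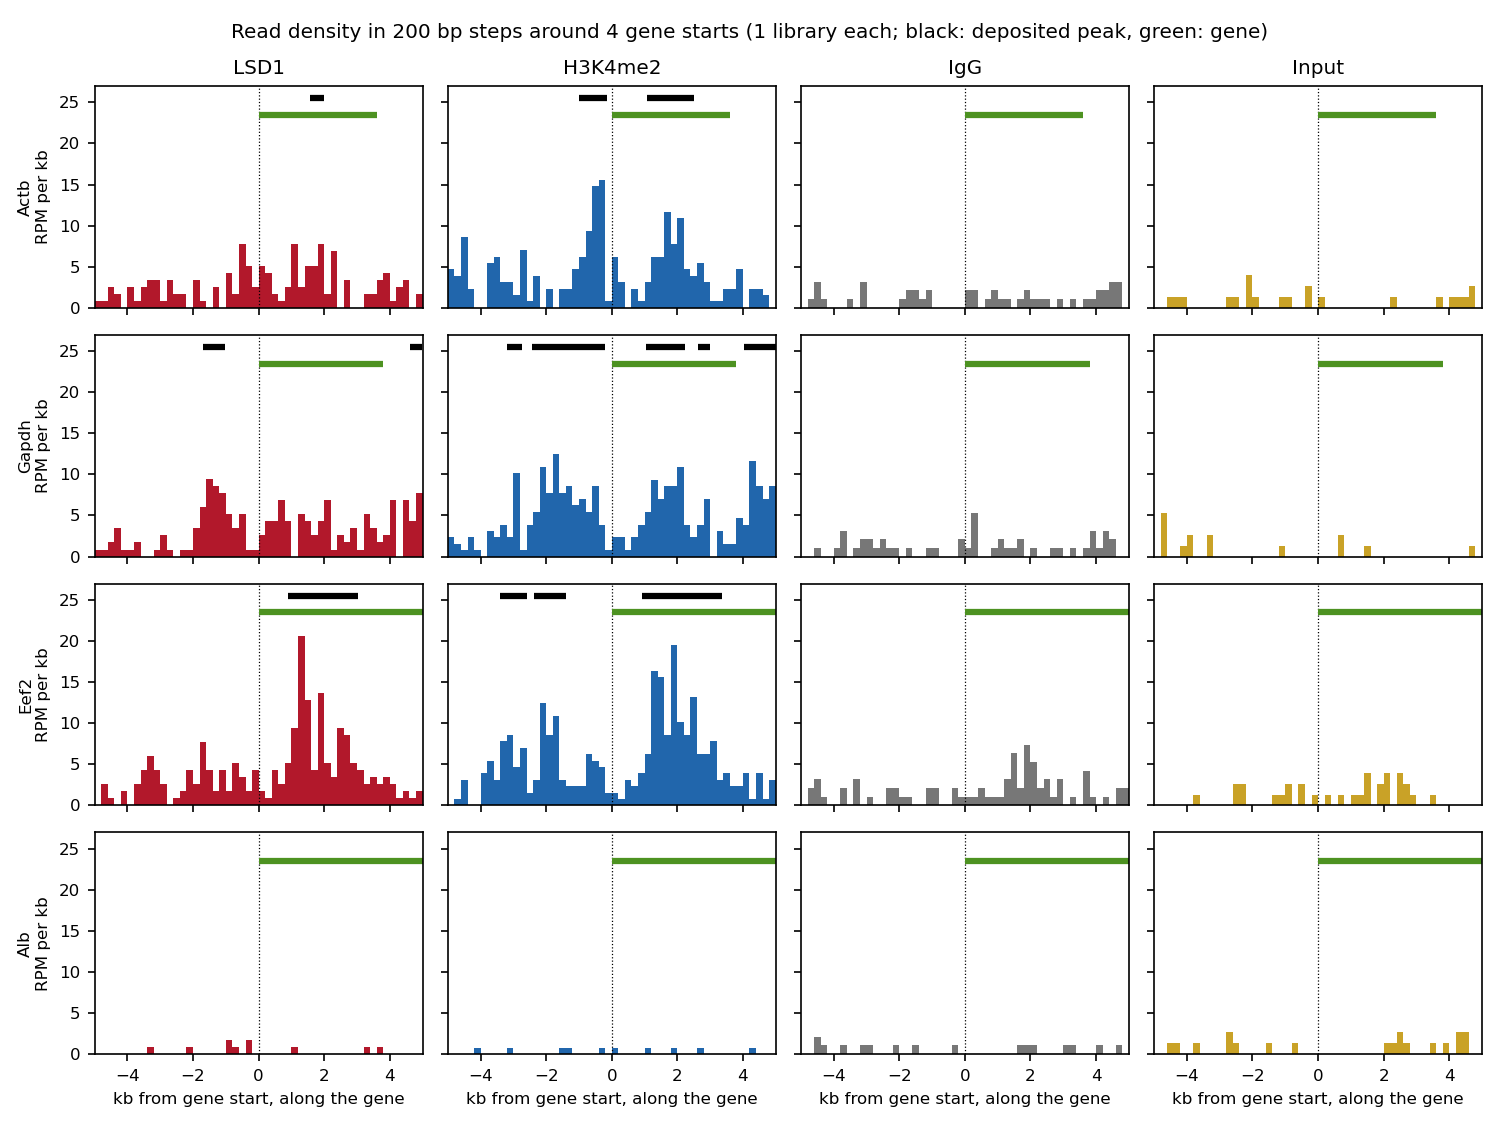
Read density in RPM per kb in 200 bp steps within 5 kb of the gene start (dotted line), along the direction of the gene, for LSD1, H3K4me2, IgG and Input (columns) and the 4 genes (rows), with deposited peaks in black and the gene in green. H3K4me2 forms a pair of shoulders around a low stretch at the start of Actb, Gapdh and Eef2, the highest LSD1 step is in Eef2, and the Alb row is nearly empty.

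Around each housekeeping start the H3K4me2 library had a low stretch that included the first 800 bp of the gene, between denser shoulders. To describe it, the 3.2 kb on either side were divided into segments of 800 bp. This division was chosen after the low stretch was seen in the same reads, so the values that follow describe it and do not test it. At Actb H3K4me2 held 15 reads in the first 800 bp of the gene, against 52 in the 800 bp upstream and 21 in the next 800 bp. At Gapdh the counts were 10 in the first 800 bp, against 24 upstream and 33 in the next segment. At Eef2 they were 10, against 23 upstream and 54 in the next segment. The count in the first 800 bp was thus the lowest of the 3 at each gene. Summed over the 3 genes, H3K4me2 in the first 800 bp stood at 0.354 of the upstream segment and at 0.324 of the next one. At Actb the first 800 bp stood at 0.714 of the next segment (0.343 to 1.45), an interval that includes 1. Low segments occurred elsewhere too: from 2400 to 1600 bp upstream of Actb H3K4me2 held 8 reads. From 1600 to 800 bp upstream of Eef2 it held 13, so low counts were not confined to the inside of that gene.

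In the same segments LSD1 held 14 reads in the first 800 bp of Actb, against 20 upstream and 21 in the next segment. In Gapdh it held 21, against 12 upstream and 16 in the next segment, and in Eef2 it held 11, against 17 and 56. The sum in the first 800 bp was 0.939 of the upstream segment and 0.495 of the next one, with Eef2 giving 56 of the 93 reads of the next segment. IgG held 16 reads in the first 800 bp of the 3 genes, against 5 upstream and 20 in the next segment, and Input held 5, 5 and 6. The first 800 bp was thus 3.20-fold denser than the upstream segment in IgG, and the part of this in the LSD1 counts was not tested. The ratio to IgG in the first 800 bp was 2.34 for LSD1 and 1.62 for H3K4me2. In the 800 bp upstream the ratios to IgG were 7.99 for LSD1 and 14.7 for H3K4me2, on 5 IgG reads.

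The ratio of LSD1 to H3K4me2 reads in these segments carries the same choice, since few H3K4me2 reads in the first 800 bp raise it. Summed over the 3 genes it was 1.45 (0.911 to 2.31) in the first 800 bp and 0.544 (0.378 to 0.774) in the 800 bp upstream. The interval of the first 800 bp includes the 1.12 found outside the peaks of both lists. By gene the ratio in the first 800 bp was 1.03 at Actb, 2.31 at Gapdh and 1.21 at Eef2. Over all LSD1 peaks of the genome the ratio was 0.852. From 1600 to 800 bp upstream the summed ratio was 0.899, and in the segment after the first 800 bp it was 0.947.

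**Figure D4:**
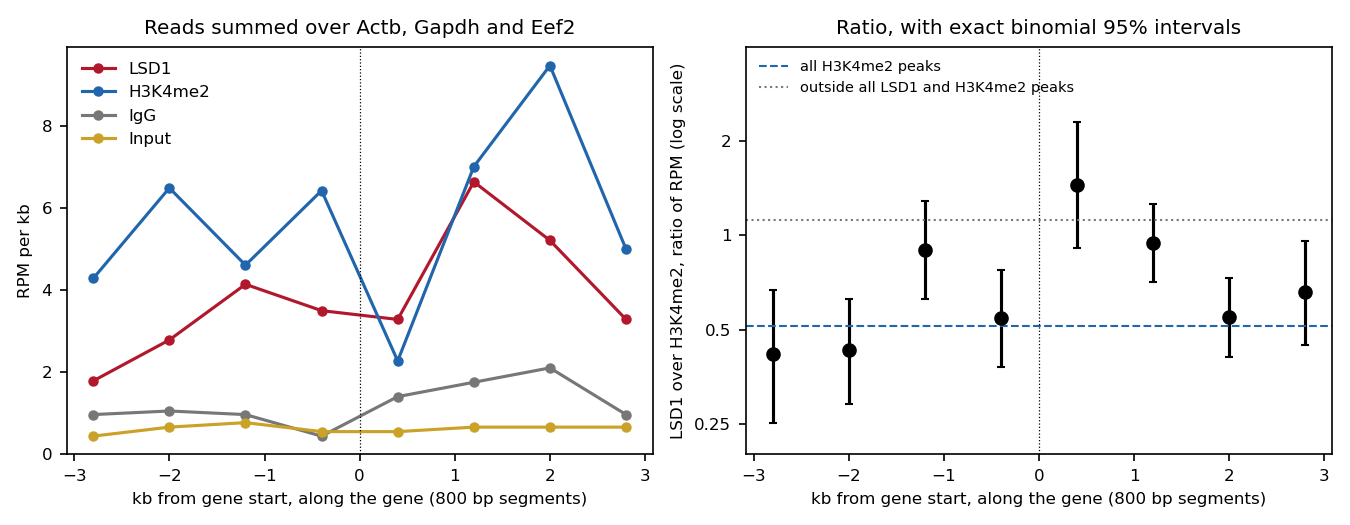
Left, read density in RPM per kb summed over Actb, Gapdh and Eef2 in 800 bp segments along the gene, for the 4 libraries; right, the LSD1 to H3K4me2 ratio of RPM in the same segments on a log scale with exact binomial 95% intervals. H3K4me2 drops to 2.27 RPM per kb in the first segment inside the genes, where the ratio reaches 1.45 (0.911 to 2.31). The segments were chosen after this low stretch was seen, so the ratio is a description. Dashed and dotted lines lie at 0.514 for all H3K4me2 peaks and 1.12 outside peaks.

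Pairwise LSD1 ratios between promoters were 0.955 (0.610 to 1.49) for Actb over Gapdh, 1.17 (0.730 to 1.87) for Actb over Eef2 and 1.22 (0.769 to 1.95) for Gapdh over Eef2. For H3K4me2 the Actb promoter exceeded that of Gapdh 1.58-fold (1.09 to 2.32) and that of Eef2 1.85-fold (1.25 to 2.78), and Gapdh over Eef2 was 1.17 (0.756 to 1.82). The LSD1 to H3K4me2 ratio was 0.608 (0.407 to 0.897) at Actb, 1.01 (0.654 to 1.55) at Gapdh and 0.966 (0.600 to 1.55) at Eef2. None of the 3 pairwise differences of this ratio had an interval that excluded 1, and that of Actb over Gapdh was 0.604 (0.333 to 1.09). In the gene body Eef2 was the densest in LSD1, where Actb stood at 0.649 of Eef2 (0.462 to 0.899) and Gapdh at 0.591 (0.420 to 0.820). IgG in the body of Actb was 0.362 of that of Eef2 (0.164 to 0.721) as well.

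Input also differed between the gene bodies. Actb held 1 Input read in 2600 bp of body and Gapdh 1 in 2800 bp, whereas Eef2 held 21 in 4800 bp and Alb 26 in 15000 bp. In RPM per kb these are 0.101, 0.0940, 1.15 and 0.456, against a median of 0.395 over all tiles. Under symbols made of the gene name and -ps, the GRCm38.p6 table lists 1 pseudogene of Actb, 3 of Gapdh, 1 of Eef2 and 0 of Alb. Pseudogenes under other names were not counted, so these are not totals. How reads with several matching places were treated is not given in the sources used here, and the part of such reads in these values was not tested.

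Every housekeeping window held peaks of both ChIP libraries, 6 LSD1 peaks and 21 H3K4me2 peaks in all, and no IgG peak. For IgG 0.0122% of 2 kb tiles touched a peak. A 2 kb tile of the genome touched an LSD1 peak in 0.493% of cases and an H3K4me2 peak in 3.14%. The housekeeping windows are 20 to 25 kb wide and hold neighbouring genes, so these tile shares are no background for them. The share of windows of that width with a peak was not computed. Since the authors' calls rest on the same reads, the count of a library in its own peaks is a description. All 6 LSD1 peaks overlapped an H3K4me2 peak by 1 bp or more, as did 91.7% of LSD1 peaks in the whole list. Of the 21 H3K4me2 peaks 6 shared sequence with an LSD1 peak (28.6%, 11.3 to 52.2), against 14.2% of the whole list, a share inside the interval. Between 2 kb upstream and the gene end there were 3 LSD1 peaks, 1 per gene, and 7 H3K4me2 peaks.

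The LSD1 peaks sat at different places along the 3 genes. In Actb the peak on chromosome 5 from 143666405 to 143666833 lay inside the gene, 1567 to 1996 bp from the start, with 16 LSD1 reads, 26 H3K4me2 reads, 3 IgG reads and no Input read. It was 4.35-fold over IgG (1.24 to 23.3) and in the lower part of the LSD1 list by density, above 17.5% of its peaks. In Gapdh the peak on chromosome 6 from 125116619 to 125117302 lay upstream, at -1702 to -1018 bp, with 35 LSD1, 34 H3K4me2, 1 IgG and 1 Input read. Its density was above 95.7% of LSD1 peaks, and its ratio to IgG was 28.5 with an interval from 4.80 to 1159. In Eef2 the peak on chromosome 10 from 80640294 to 80642427 lay inside the gene, 893 to 3027 bp from the start, and was 2134 bp wide against a median of 461 bp in the list.

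The Eef2 peak had the most LSD1 reads of the 6 and a low ratio to its controls. It held 113 LSD1, 143 H3K4me2, 33 IgG and 16 Input reads, and was above 97.2% of LSD1 peaks by density. LSD1 exceeded IgG 2.79-fold (1.88 to 4.25) and Input 4.60-fold (2.71 to 8.32) in it. IgG and Input were themselves high in this stretch: from 1 to 3 kb inside Eef2 IgG stood at 3.47 RPM per kb and Input at 2.10, against tile medians of 0.315 and 0.395. The part of this control signal in the LSD1 and H3K4me2 densities of Eef2 was not tested. The highest single step of 200 bp for LSD1, with 24 reads, was centred 1300 bp inside Eef2 beside 21 H3K4me2, 3 IgG and 1 Input read.

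H3K4me2 peaks flanked each start and left it uncalled. At Actb the peak on chromosome 5 from 143668545 to 143669396, upstream at -996 to -144 bp, held 60 H3K4me2 reads, 22 LSD1 reads, no IgG read and 3 Input reads. It was 14.8-fold over an IgG floor of 3 reads in the library, and the exact interval of the ratio to IgG started at 11.7. The peak was denser than 99.4% of the H3K4me2 list. The next peak, from 143665897 to 143667331, lay 1069 to 2504 bp inside Actb with 68 H3K4me2, 42 LSD1, 6 IgG and 1 Input read. At Gapdh the upstream peak on chromosome 6 from 125115801 to 125118031 held 111 H3K4me2, 60 LSD1, 6 IgG and 1 Input read, and a peak inside the gene from 125113361 to 125114563 held 65, 27, 6 and 1. At Eef2 the nearest upstream peak on chromosome 10, from 80637034 to 80637998, lay at -2367 to -1402 bp and held 49 H3K4me2, 24 LSD1, 6 IgG and 1 Input read. The peak inside Eef2, from 80640329 to 80642763, held 154 H3K4me2, 117 LSD1, 34 IgG and 16 Input reads, a ratio to IgG of 3.36 (2.30 to 5.02).

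The uncalled gap around the start spanned 1213 bp at Actb, 1237 bp at Gapdh and 2330 bp at Eef2. It still held 20 LSD1, 17 H3K4me2, 8 IgG and 1 Input read at Actb, 27, 18, 10 and 2 at Gapdh, and 41, 47, 13 and 9 at Eef2. The LSD1 to IgG ratio in the gap was 2.04 (0.860 to 5.35) at Actb, 2.20 (1.03 to 5.10) at Gapdh and 2.57 (1.35 to 5.23) at Eef2. The H3K4me2 to IgG ratio was 1.57 (0.644 to 4.22), 1.33 (0.584 to 3.23) and 2.68 (1.43 to 5.40). The low H3K4me2 counts of the gaps follow from how they were chosen and are a description.

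The other peaks of the windows lay beyond the genes as placed here. Neighbouring genes in the GRCm38.p6 table are Fbxl18 and Gm38733 for Actb, Iffo1 and Ncapd2 for Gapdh, and Pias4, Snord37, Dapk3 and Atcayos for Eef2, and no peak was assigned to them. These were 14 H3K4me2 peaks, 3 of them with an LSD1 peak. The H3K4me2 density of the 7 peaks from 2 kb upstream to the gene end ran from 5.89 to 11.0 RPM per kb with a median of 7.91, against 5.47 to 10.3 with a median of 7.34 for the 14 others and a median of 6.67 for the whole list. All 21 had an H3K4me2 to IgG ratio whose interval lay above 1, which is a description, since the peaks were called on the same H3K4me2 reads. The LSD1 to H3K4me2 ratio ran from 0.403 to 0.836 over the 7 peaks, the highest in the peak inside Eef2, and from 0.236 to 0.660 over the 14.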

How the data were processed

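ChIP-seq and control libraries of mouse R1 embryonic stem cells were analysed, 1 library per group. Formaldehyde-fixed chromatin was sheared and precipitated, fragments of about 200 bp were selected and 36 bases were read from them, per the labels' protocols. The reads have positions on mm9, the build named per the submitters' processing notes. Which aligner and peak caller made the files, and with which settings, was not given in the sources used here. The authors deposited 1 line per aligned read, from which a count per region was made here, and for LSD1, H3K4me2 and IgG a list of peak positions without a score. Within a library each combination of start and strand was listed a single time.

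Read starts were moved 100 bp along their strand and counted by region. Ratios between libraries, or between segments of 1 library, carry exact binomial intervals, given the total of the 2 counts. Ratios of ratios are conditional odds ratios with exact intervals, densities carry exact Poisson intervals and shares Clopper-Pearson intervals. All are 95% intervals for counting error only. A ratio against a library without a read used a floor of 3 reads, and no ratio was made where both counts were at most 3. The tile rule and the intervals were tested on simulated data. The tiles tested were those with at least 1 read in any library.

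The named items are the 4 genes, every peak in their windows, and neighbouring genes by name. Members, windows and segments were chosen with earlier results of these data known. Alternatives were another shift of the read start, promoter widths of 600 and 2000 bp on either side, the gene start moved by 400 bp, Input as the control, scaling to reads outside peaks, other tile rules, a stricter peak overlap and the denser 50% of each peak list. The segments of 800 bp and the body from 3000 bp inside the gene were added after seeing the data. Scripts ran in Python 3.11.15 with scipy 1.17.1, numpy 2.4.6 and pandas 2.3.3, and figures were drawn with matplotlib 3.10.9.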

Additional observations from a re-analysis of the deposited data

How the results depend on the processing

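Of 257 alternative values for 39 results, 235 stayed within the interval of the reported value or within 1.5 times a reported count. The alternatives reuse the same reads, and some intervals are very wide, such as 0.456 to 193 for LSD1 over IgG at the Alb promoter. This count is therefore a weak measure of stability. Each housekeeping promoter ratio to its control stayed above 1 as a value, but with 600 bp on either side the intervals of Gapdh and Eef2 included 1 for both ChIP libraries, with ratios of 2.14 to 2.33. The ratio of promoter to body changed direction at Eef2 and, for H3K4me2, at Gapdh. At Eef2, with the promoter 2000 bp on either side it was 1.68 for LSD1, 1.32 for H3K4me2 and 1.01 for IgG, and with the body from 3000 bp inside the gene it was 1.36, 0.973 and, for Input, 1.96. With the start moved 400 bp into the gene it was 1.26 for LSD1 and 0.755 for H3K4me2. These settings move part or most of the dense stretch of Eef2 into the promoter or out of the body, and its part in the change was not tested. The same ratio for Actb LSD1 was 1.84 with 2000 bp and 3.15 with the body from 3000 bp, for Actb H3K4me2 4.56 with the body from 3000 bp, and for Gapdh H3K4me2 1.56 and 2.40. The ratio for Alb Input became 0 with 600 bp and with the start moved into the gene, since 1 read was lost. With Input as the control, the Gapdh promoter ratio was 14.3 for LSD1 and 14.2 for H3K4me2, and the promoter ratio over the body ratio at Actb was 0.209 and 0.223, all on 1 to 4 Input reads. The share of tiles called for LSD1 was 8.36% with at least 5 reads and 2.06% with at least 20. In the denser 50% of the LSD1 list 3 of the 6 peaks were left. Some alternatives gave no value where a control segment had no read. No paired analysis was possible because no group has more than 1 library. Depth limits the ratios to IgG, with 7 to 11 IgG reads at each housekeeping promoter and 1 at that of Alb.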
